A study of Mus musculus with 8 samples.

Results

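The genes described here run the cell death programme: the BCL2 family, caspases, the proteins released from mitochondria, the inhibitor of apoptosis proteins, the death receptor complex and the enzymes that cut DNA in dying cells. They were chosen by name from a list of 32 genes, and a gene's value is that of its brightest probe set carrying this 1 gene symbol. Of the 32 genes, 30 had such a probe set, out of 18193 genes in the series, and 27 of them had a mean above the filter on dim probe sets and were tested, out of 10600 genes tested. Bik, Bmf and Hrk were below that filter, and Bax and Ripk1 are not analysed here.

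The samples are fetal liver haematopoietic stem cells of Crebbp+/- embryos and of wild-type embryos, both C57BL/6. Crebbp encodes CBP, a histone acetyltransferase that other transcription factors recruit, and the series title connects its partial loss with myelodysplastic syndrome and faulty DNA repair. Cells were sorted as Sca-1+, Lin-, AA4.1+ and c-Kit++ at 14 days post coitum by one label and 14.5 by another, and RNA of 15 combined embryos made up a sample. Each genotype has samples numbered 1 and 2 with 2 arrays each, giving 8 arrays and n = 2 samples per genotype. The labels name neither the part of Crebbp that the mutant allele lacks nor what the sample number stands for, and they do not say whether samples of a genotype came from separate litters, so p-values measure the spread between these samples only.

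Apoptosis is controlled at the mitochondrion. Anti-apoptotic BCL2 proteins hold the pore-forming proteins in check, BH3-only proteins release them under stress, and the pores let out cytochrome c, which assembles with APAF1 and caspase-9 into the apoptosome that starts the caspase cascade. A separate route starts at death receptors through FADD and caspase-8. In blood stem cells, MCL1 is known as a survival factor without which the cells are lost, and BIM, the product of Bcl2l11, is a main trigger of death when cytokines are withdrawn.

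Values are GCRMA log2 signals, which the authors background-corrected and normalized, averaged over the 2 arrays of a sample. Differences are Crebbp+/- minus wild type, so 1 unit is a doubling, and SE and 95% intervals come from a limma fit. The fit took the 22518 probe sets that were brighter, on average over the arrays, than the median probe set (2.72). The brightness of a probe set depends on its sequence, so levels of different genes are not ranked here. Array medians over all probe sets lay between 2.65 and 2.70. Crebbp itself, at the brightest of 4 probe sets, had 11.95 and 11.66 in Crebbp+/- samples 1 and 2, against 12.07 and 11.41 in wild type, a difference of 0.07. The others differed by 0.01, -0.42 and -0.35. At those with -0.42 and -0.35 both Crebbp+/- samples lay below both wild-type samples. None passed limma after adjustment (adjusted p of at least 0.991). Since the place of the probe sets relative to the mutant allele is not given, these values do not check the labels.

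Marker lists of the sorted cells and of other cell types were not even between the genotypes, although no marker passed limma after adjustment (adjusted p of at least 0.991). Of 8 markers of the sorted cells, 7 had a probe set and all 7 passed the filter, with a summed log2 signal of 72.6 and 71.5 in Crebbp+/- samples 1 and 2, against 73.9 and 73.1 in wild type. Arrays of Kit, Cd93, Cd34 and Ptprc overlapped between genotypes, although both Crebbp+/- sample means of Ptprc lay above those of wild type. Procr, Hlf and Mecom were lower on every Crebbp+/- array, by estimates of -0.81, -0.54 and -0.38. Of 6 measured myeloid markers 4 passed the filter. Arrays of Mpo, Csf1r and Elane overlapped, although both Crebbp+/- sample means of Elane lay below those of wild type. Lyz2 was lower on every Crebbp+/- array (-0.54). The 6 markers summed to 39.8 and 41.8 in Crebbp+/- samples, against 41.0 and 42.8 in wild type. Of 5 measured erythroid markers only Slc4a1 passed, dim but higher on every Crebbp+/- array (0.70), with Hba-a1 and Alas2 near the floor, and the sums were 12.5 and 12.8 in Crebbp+/- samples, against 11.8 and 12.0 in wild type.

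Liver transcripts did not follow the genotype evenly: 5 of 6 measured hepatocyte markers passed the filter, their summed log2 signal over the 6 genes was 32.3 and 34.5 in Crebbp+/- samples 1 and 2, against 18.1 and 38.9 in wild type, and Alb was at 2.43 in wild-type sample 1 alone. The sum of 4 mast cell markers was 13.2 and 13.2 in Crebbp+/- samples, against 10.7 and 10.9 in wild type. Nearly all of this difference came from Cpa3 (2.35 and 2.00 higher in the 2 numbers, and higher on every Crebbp+/- array), since Mcpt8 differed by 0.12 and 0.29 and Ms4a2 and Fcer1a were below the filter. The 5 megakaryocyte markers summed to 16.6 and 17.5 in Crebbp+/- samples, against 19.8 and 20.6 in wild type. This was chiefly through Gp9 (-1.21) and Vwf (-1.64), both lower on every Crebbp+/- array. Arrays of Pf4 and Itga2b overlapped, although both Crebbp+/- sample means of Pf4 lay below those of wild type. Ppbp was below the filter. The 6 lymphoid markers summed to 27.4 and 28.9 in Crebbp+/- samples, against 23.0 and 26.4 in wild type, with Rag1, Il7r, Ebf1 and Vpreb1 past the filter and Cd79a and Cd3e not. Rag1 was higher on every Crebbp+/- array (0.87). Il7r, Ebf1 and Vpreb1 were higher within both sample numbers, with arrays overlapping between genotypes. The 4 endothelial markers (2 past the filter, Cdh5 and Kdr not) summed to 19.1 and 18.7 in Crebbp+/- samples, against 19.8 and 19.1 in wild type. The part of all these markers' cells in the values below was not tested.

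None of the 27 genes differed between genotypes by limma with Benjamini-Hochberg adjustment over all probe sets (adjusted p of at least 0.991), and among all genes tested 0% did. No member reached an unadjusted p under 0.05, against 2.67% of all genes. The members split into 16 with a positive and 11 with a negative difference (59.3% positive, near the 56.9% of all genes with a difference above 0), and 24 of the 27 differed by less than 0.5 in size. Their median difference was 0.04, as was that of all genes tested. In whole sorted populations, fewer cells of a type and less RNA per cell cannot be told apart.

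Pro- and anti-apoptotic genes gave like medians. The median difference was 0.02 over 17 pro-apoptotic genes, of which 10 were positive, and 0.07 over 8 anti-apoptotic genes, of which 5 were positive. Over all genes tested the median was 0.04. Casp1, an inflammatory caspase, and Dffa, both inhibitor and chaperone of a nuclease, were counted in neither class. Between the samples numbered 1 the medians were 0.02 for both classes. Between the samples numbered 2 they were 0.12 for pro- and 0.08 for anti-apoptotic genes, where all genes had 0.02 and 0.06 in the 2 numbers.

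**Figure D1:**
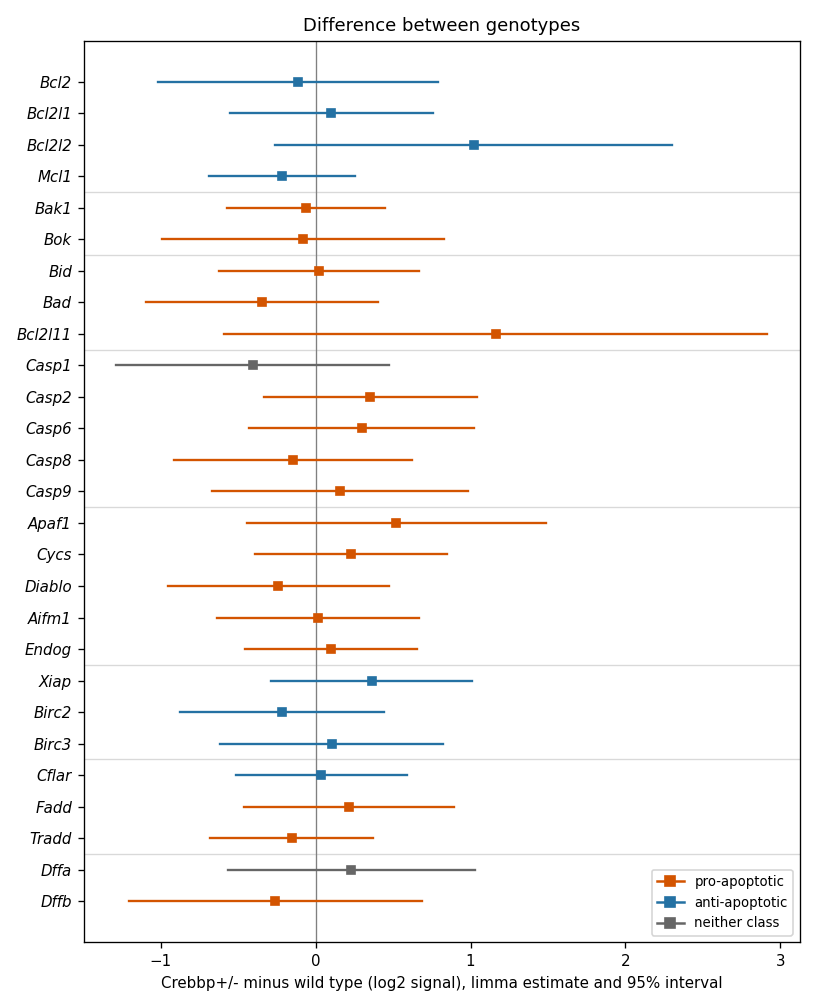
Difference in log2 signal between Crebbp+/- and wild type for the 27 genes tested, with squares for the limma estimate and lines for its 95% interval, ordered by role and coloured by class. In this fit, which has no term for sample number, every interval includes 0. Bcl2l11 and Bcl2l2 have the 2 highest estimates, 1.16 and 1.02, with the widest intervals.

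CREB, one of the factors that recruit CBP, binds the palindrome TGACGTCA and, less firmly, the half-site TGACG, so promoters of the members were searched for both on both strands. The search covered RefSeq windows (GRCm38.p6) from 250 bases before to 50 bases after an annotated start, 40 windows of 30 of the 32 genes. The palindrome was in 2 of the 40 windows (5.0%), against 1.79% of all 32851 windows, and each match also counts as a half-site. A half-site was in 11 of the 40 (27.5%), against 20.8% of all, and the genes were Bcl2, Birc2, Bmf, Cycs, Dffa, Diablo, Hrk, Mcl1, Ripk1 and Xiap. The 2 stretches with the palindrome are shown because they hold the only full matches, with the motif in capitals, at chr6:50566705-50566764 on the minus strand for Cycs (motif at -169 from the start) and at chr9:7837059-7837118 on the minus strand for Birc2 (motif at -35).
Cycs: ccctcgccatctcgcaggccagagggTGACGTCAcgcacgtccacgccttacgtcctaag
Birc2: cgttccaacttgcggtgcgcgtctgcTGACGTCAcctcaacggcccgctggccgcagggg
A match of letters is a description of the window, not evidence of binding. The values of these genes, given below, lay on opposite sides of 0 and neither passed the test.

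Among the 4 anti-apoptotic BCL2 genes, Bcl2l2 had the largest difference and Bcl2, Bcl2l1 and Mcl1 differed by at most 0.22 in size at their brightest probe sets. Bcl2l2, which encodes BCL-W, had a signal of 5.47 and 5.99 in Crebbp+/- samples 1 and 2, against 5.29 and 4.12 in wild type. Both Crebbp+/- samples lay above both wild-type samples, although single arrays overlapped, and the difference was 1.02 (SE 0.49, interval -0.26 to 2.30, limma adjusted p = 0.991). It was 0.18 between the samples numbered 1 and 1.86 between those numbered 2, and the 2 arrays of wild-type sample 2 stood at 4.96 and 3.28. Its second probe set past the filter, a dim one, differed by 0.10. Leaving out wild-type sample 2 gave 0.44 and leaving out wild-type sample 1 gave 1.60.

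Mcl1 had a signal of 11.27 and 10.90 in Crebbp+/- samples 1 and 2, against 11.34 and 11.27 in wild type, a difference of -0.22 (SE 0.18, interval -0.69 to 0.25, limma adjusted p = 0.991). The samples overlapped, with only Crebbp+/- sample 2 standing lower, and the difference was -0.03 without that sample and -0.41 without Crebbp+/- sample 1. Of its 6 probe sets past the filter 5 had negative differences, from -0.34 to -0.16, and the other was at 0.04. The interval of the brightest probe set does not extend to a loss of 1 log2 unit. That of 1416880_at, the probe set at 0.04, does, running from -1.03 to 1.10.

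Bcl2 itself gave different answers at its 5 probe sets past the filter. The brightest had 6.32 and 6.85 in Crebbp+/- samples 1 and 2, against 6.46 and 6.93 in wild type, a difference of -0.11 (SE 0.35, interval -1.02 to 0.79). The others differed by 0.58, -1.22, -0.42 and -0.34. The largest of these in size was at 1440770_at (difference -1.22, SE 0.41, limma adjusted p = 0.991). Of the 59 member probe sets past the filter it alone had an unadjusted limma p under 0.05, against 1089 of all 22518 probe sets. That probe set read 4.79 and 4.18 in Crebbp+/- samples 1 and 2, against 5.31 and 6.09 in wild type, but the 2 arrays of Crebbp+/- sample 2 were at 5.41 and 2.94. Its array spread in 1 sample is thus wider than the difference between genotypes.

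Bcl2l1, encoding BCL-XL, had 7.18 and 7.29 in Crebbp+/- samples 1 and 2, against 7.08 and 7.19 in wild type, a difference of 0.10 (SE 0.25). That 0.10 was the same within both sample numbers. Its 2 other probe sets past the filter differed by 0.87 (SE 1.34) and 0.72 (SE 0.81) between genotypes, and their large errors go with sample number, described further on.

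**Figure D2:**
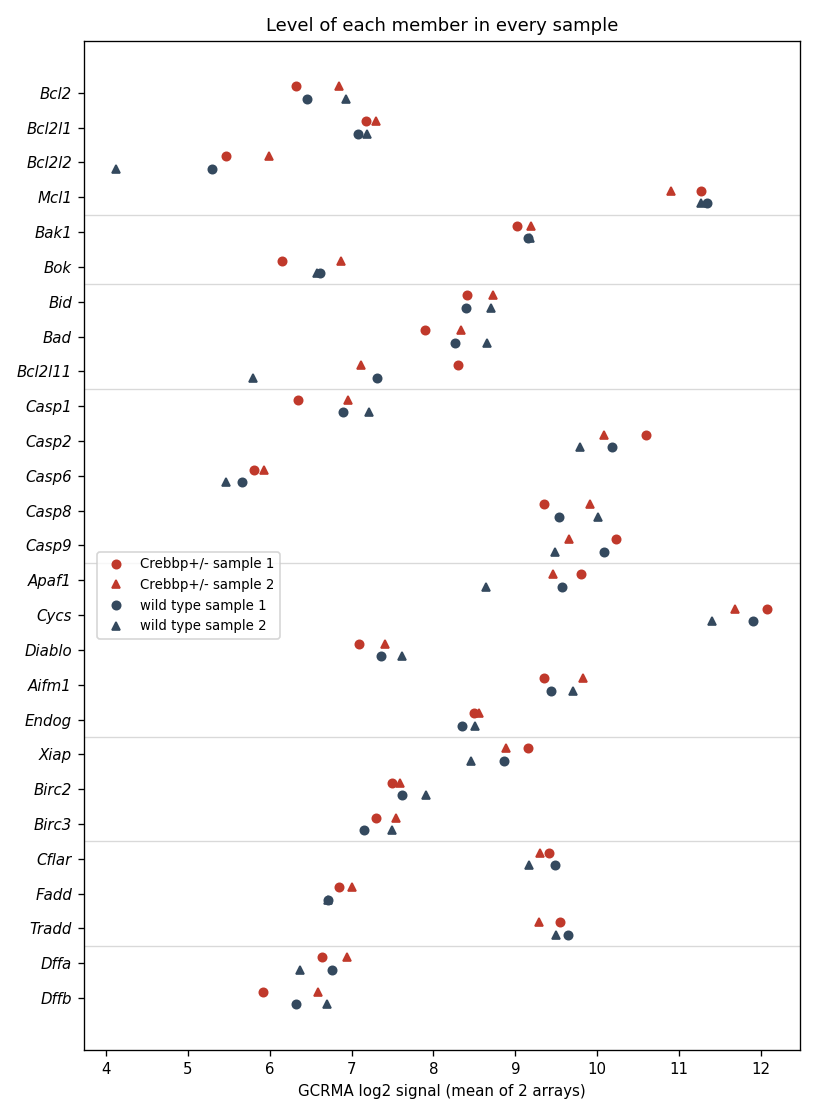
GCRMA log2 signal of each of the 27 genes in each sample, with Crebbp+/- in red above wild type in dark blue, circles for the samples numbered 1 and triangles for those numbered 2, and each point the mean of 2 arrays. For 21 of the 27 genes sample numbers differ by more than genotypes do, which was not counted over all genes. Bcl2l11 and Bcl2l2 show the widest spread.

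Both measured pore-forming genes had nearly equal signals in the 2 genotypes. Bak1, which makes pores in the outer mitochondrial membrane, had 9.02 and 9.20 in Crebbp+/- samples 1 and 2, against 9.16 and 9.18 in wild type, a difference of -0.06 (SE 0.19, interval -0.57 to 0.45). Bok, a more divergent relative, had 6.15 and 6.87 in Crebbp+/- samples, against 6.61 and 6.58 in wild type, a difference of -0.08 (SE 0.35). For both, the wild-type samples lay between the Crebbp+/- samples, and Bok differed by -0.46 in number 1 and 0.29 in number 2.

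Of the BH3-only genes, which sense stress, Bcl2l11 had the largest difference of all 27 genes. Its brightest probe set, 1435448_at, had a signal of 8.30 and 7.12 in Crebbp+/- samples 1 and 2, against 7.31 and 5.79 in wild type. The difference was 1.16 (SE 0.67, interval -0.59 to 2.92, limma adjusted p = 0.991). It was 1.00 in number 1 and 1.33 in number 2, and in each number both Crebbp+/- arrays lay above both wild-type arrays. The groups nevertheless overlap as a whole, because Crebbp+/- sample 2 was below wild-type sample 1. With 1 sample left out the difference ran from 0.40 (without wild-type sample 2) to 1.92 (without wild-type sample 1), and the mean of both probe sets gave 0.54.

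The second Bcl2l11 probe set past the filter, 1456005_a_at, did not follow the first. It had 7.09 and 6.47 in Crebbp+/- samples 1 and 2, against 6.87 and 6.87 in wild type, a difference of -0.08 (SE 0.33). The other 3 Bcl2l11 probe sets were below the filter. Where on the transcripts each probe set lies is not given in the sources used here.

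Bid, the BH3-only protein that caspase-8 cleaves, had 8.41 and 8.72 in Crebbp+/- samples 1 and 2, against 8.39 and 8.70 in wild type, so the difference of 0.02 (SE 0.25) was the same in both numbers. Its 2 dimmer probe sets differed by -0.31 and 0.42. Bad, which growth factor signals inactivate, had 7.89 and 8.34 in Crebbp+/- samples, against 8.26 and 8.66 in wild type, a difference of -0.34 (SE 0.29). It was lower within both numbers, by -0.37 and -0.32, and at its second probe set by -0.24, without passing the test. The brightest probe sets of Bik, Bmf and Hrk read between 2.30 and 2.75 in all samples with means below the filter, so no difference could be measured for them.

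**Figure D3:**
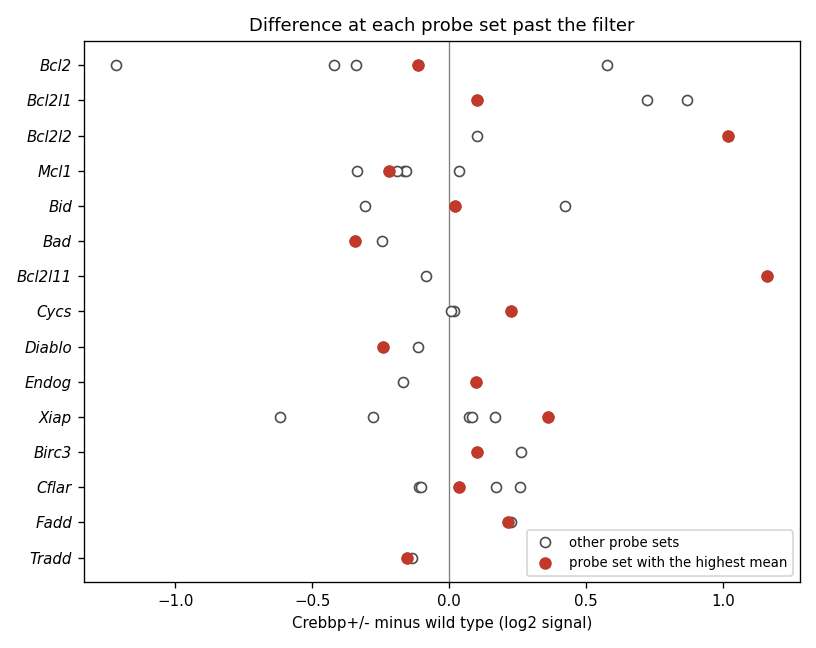
Difference in log2 signal between Crebbp+/- and wild type at every probe set past the filter for the 15 genes with more than 1, filled for the brightest and open for the others. In 7 of the 15 genes probe sets fall on both sides of 0, with the widest spreads for Bcl2, from -1.22 to 0.58, and Bcl2l11, from -0.08 to 1.16.

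Of the 5 caspases, 3 had positive and 2 negative differences, each in the same direction within both sample numbers. Casp2, a caspase linked to DNA damage and abnormal chromosome numbers, had 10.60 and 10.08 in Crebbp+/- samples 1 and 2, against 10.19 and 9.79 in wild type. The difference of 0.35 (SE 0.26, interval -0.33 to 1.04) was made up of 0.41 and 0.29 in the 2 numbers, and the genotypes overlapped. Casp6, an executioner, had 5.80 and 5.92 in Crebbp+/- samples, against 5.67 and 5.47 in wild type, a difference of 0.30 (SE 0.28) with the samples of the genotypes apart.

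Casp9, the initiator of the apoptosome, differed by 0.16 (SE 0.32), with 10.23 and 9.66 in Crebbp+/- samples 1 and 2, against 10.09 and 9.49 in wild type. Casp8, the initiator at death receptors, differed by -0.15 (SE 0.29), with 9.35 and 9.91 in Crebbp+/- samples, against 9.54 and 10.01 in wild type. In both genes sample 1 was close to sample 1 and sample 2 to sample 2. Casp1, which processes inflammatory cytokines, had the most negative estimate of the 27 genes, at -0.41 (SE 0.34, interval -1.29 to 0.48), with 6.34 and 6.96 in Crebbp+/- samples, against 6.90 and 7.21 in wild type.

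Of 5 genes acting at or downstream of the mitochondrion, 4 had positive differences. Apaf1, the scaffold of the apoptosome, had 9.80 and 9.46 in Crebbp+/- samples 1 and 2, against 9.57 and 8.64 in wild type, a difference of 0.52 (SE 0.37, interval -0.44 to 1.48) composed of 0.23 and 0.81 in the 2 numbers. Wild-type sample 2 was the low one, and the other 3 samples lay above it: without it the difference was 0.06, and without wild-type sample 1 it was 0.99. Cycs, encoding cytochrome c, had 12.08 and 11.68 in Crebbp+/- samples, against 11.90 and 11.41 in wild type, a difference of 0.23 (SE 0.24), and its 2 other probe sets past the filter differed by 0.02 and 0.01.

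The other genes of that group had small estimates in both directions. Aifm1, a flavoprotein of the respiratory chain assembly that can move to the nucleus, differed by 0.02 (SE 0.25), and Endog, a mitochondrial nuclease, by 0.10 (SE 0.21). Endog had 8.50 and 8.56 in Crebbp+/- samples 1 and 2, against 8.35 and 8.51 in wild type, and its second probe set was at -0.17. Diablo, the antagonist of inhibitor of apoptosis proteins, was at -0.24 (SE 0.27), with -0.27 and -0.21 in the 2 numbers.

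Among the inhibitor of apoptosis genes, Xiap and Birc2 each had both Crebbp+/- samples on the same side of both wild-type samples, in opposite directions. Xiap, which blocks active caspases, had 9.15 and 8.89 in Crebbp+/- samples 1 and 2, against 8.86 and 8.46 in wild type, a difference of 0.36 (SE 0.25, interval -0.29 to 1.01). Its 5 dimmer probe sets differed by values from -0.62 to 0.17. Birc2, encoding the ubiquitin ligase cIAP1, had 7.49 and 7.60 in Crebbp+/- samples, against 7.61 and 7.91 in wild type, a difference of -0.22 (SE 0.25). Birc3, its close relative cIAP2, differed by 0.10 (SE 0.28).

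In the death receptor complex, Fadd alone of the 27 genes had all 4 Crebbp+/- arrays above all 4 wild-type arrays, where 5.67% of all genes had arrays apart in either direction. Fadd, the adaptor that brings caspase-8 to the receptor, had 6.85 and 7.00 in Crebbp+/- samples 1 and 2, against 6.71 and 6.71 in wild type. The separation rests on the small spread of wild type, and the difference of 0.22 (SE 0.26, interval -0.46 to 0.89, limma adjusted p = 0.991) was smaller than its SE. The second probe set gave 0.23 with overlapping samples, but its direction differed with the sample number, at -0.15 in number 1 and 0.60 in number 2. In each number its arrays were apart.

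Cflar, which encodes the caspase-8 inhibitor FLIP, differed by 0.04 (SE 0.21, interval -0.51 to 0.59), with 9.42 and 9.31 in Crebbp+/- samples 1 and 2, against 9.48 and 9.16 in wild type. Its 5 probe sets ranged from -0.11 to 0.26. Tradd, the adaptor of the tumour necrosis factor receptor, differed by -0.16 (SE 0.20). The genes for DNA fragmentation had estimates of opposite sign: Dffb, the nuclease that cuts DNA between nucleosomes, was at -0.26 (SE 0.36), and Dffa, its inhibitor, at 0.23 (SE 0.31). Dffa had 6.64 and 6.95 in Crebbp+/- samples, against 6.76 and 6.36 in wild type, and its direction differed with the sample number, at -0.12 and 0.58.

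Because same-numbered samples resembled each other, the direction within each number was counted. In both numbers 13 of the 27 genes were higher in Crebbp+/- (48.1%, against 37.2% of all genes), and 9 were lower (33.3%, against 24.7%). The other 5, which were Bak1, Bok, Aifm1, Cflar and Dffa, had opposite directions in the 2 numbers. The arrays of the genotypes did not overlap for 13 of 27 genes in number 1 (48.1%, against 44.9% of all genes) and for 13 in number 2 (against 47.8%). Arrays were apart in the same direction in both numbers for 4 genes, higher for Bcl2l1, Bcl2l11 and Fadd and lower for Casp8, which is 14.8% against 17.8% of all genes. Sample means of the genotypes were apart for 5 genes, with Bcl2l2, Casp6, Xiap and Fadd higher and Birc2 lower in Crebbp+/-, which is 18.5% against 28.1% of all genes. The 2 arrays of a sample differed by a typical 0.18 over the 27 genes, taking each gene's median over the 4 samples and then the median of those.

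**Figure D4:**
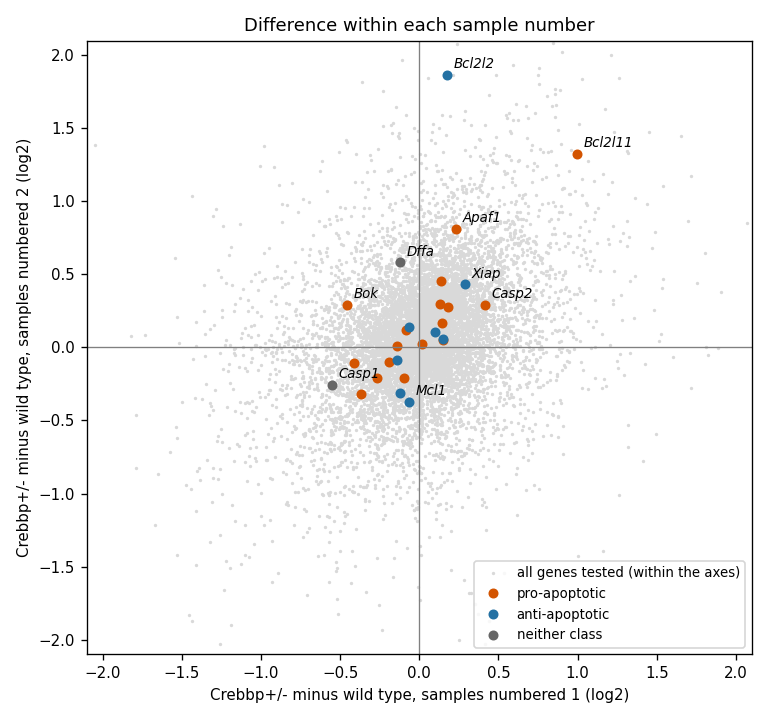
Crebbp+/- minus wild type in sample number 1 (horizontal) and in number 2 (vertical), in log2 signal, with members coloured by class over all genes tested in grey. Bcl2l11, at 1.00 and 1.33, is far from 0 in both, Bcl2l2 stands high in number 2 at 1.86, and most others lie within 0.5 of 0 on both axes.

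For 21 of the 27 genes the difference between sample numbers was larger in size than that between genotypes. The share of all genes tested for which this held was not counted, so it does not set the members apart. With genotype as a term, limma called 3 of the 27 genes lower in sample 2 (11.1%, against 6.84% of all genes) and 1 higher (3.7%, against 3.85%). Bcl2l11 was lower in sample 2 by -1.19 in Crebbp+/- and -1.52 in wild type (limma adjusted p = 0.022), Casp9 by -0.57 and -0.60 (adjusted p = 0.033), and Cycs by -0.40 and -0.49 (adjusted p = 0.028). Casp8 was higher in sample 2 by 0.57 in Crebbp+/- and 0.47 in wild type (limma adjusted p = 0.047). Over the 27 genes, 13 were higher and 9 lower in sample 2 in both genotypes. With no filter on dim probe sets, where 30 members were tested, none of the 4 calls was made. With the brightest 25% of probe sets alone, 6 of 22 members were called. The shares of all genes called in these 2 settings are not given here.

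Single probe sets passed the test of sample number where the gene's brightest one did not. Bcl2l1 at 1426191_a_at had 6.73 and 3.34 in Crebbp+/- samples 1 and 2, against 5.30 and 3.03 in wild type, a difference between numbers of -2.83 (limma adjusted p = 0.017), and at 1420887_a_at the difference was -1.69. Mcl1 at 1416880_at differed by -0.84 between numbers while its brightest probe set differed by -0.22. The Gapdh 5' signal minus the 3' signal, a measure of RNA integrity, was also lower in sample 2, at -0.89 and -1.88 in Crebbp+/- samples 1 and 2, against -1.22 and -2.59 in wild type. Within both numbers it was lower in wild type, lowest in wild-type sample 2. Its part in the differences between numbers or between genotypes was not tested.

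**Figure D5:**
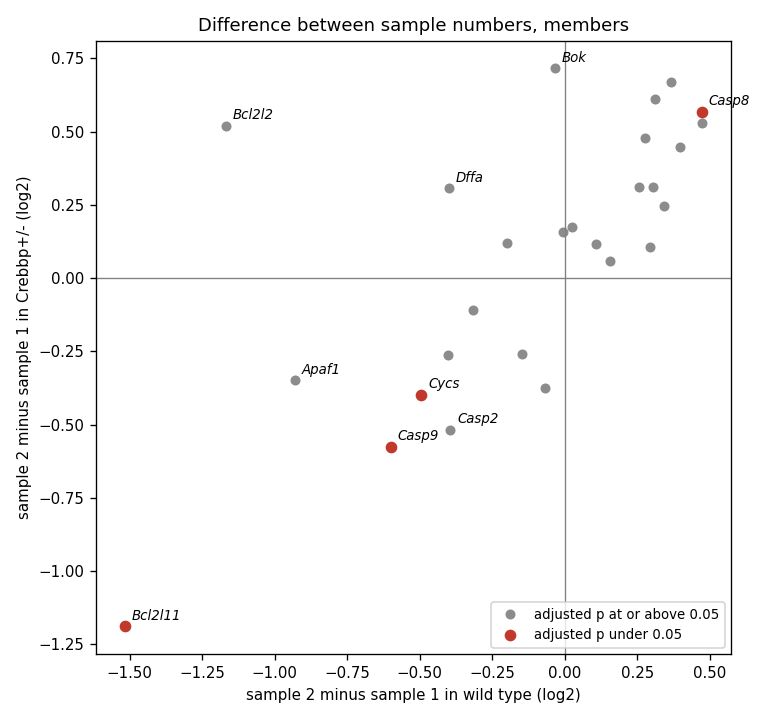
Sample 2 minus sample 1 in wild type (horizontal) and in Crebbp+/- (vertical), in log2 signal, for the 27 genes, with the 4 genes past the limma test of sample number in red. Bcl2l11 lies lowest in both genotypes at -1.52 and -1.19, and Bcl2l2 is lower in sample 2 of wild type and higher in sample 2 of Crebbp+/-.

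A further list of 41 death pathway genes gave no call either. Of these, 35 had a probe set and 27 were tested, with 14 positive and 13 negative differences and a median of 0.02. After adjustment 0 passed limma. Among all genes tested 2.67% had an unadjusted limma p under 0.05 and 5.67% had all arrays apart in either direction. Of the 27 genes, 1 had an unadjusted p under 0.05. That was Pmaip1, encoding the BH3-only protein NOXA, with 7.31 and 7.77 in Crebbp+/- samples 1 and 2, against 6.60 and 6.55 in wild type, all arrays apart and a difference of 0.97 (SE 0.29, interval 0.21 to 1.72, limma adjusted p = 0.991). Bbc3, which encodes the BH3-only protein PUMA, and Fas, a death receptor, were below the filter.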

How the data were processed

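RNA of 4 samples (8 arrays) was amplified from 12 ng and hybridised to Affymetrix mouse expression arrays, per the labels. The deposited values are log2 signals made by the authors with GCRMA, per the submitters' processing notes, and its version is not given in the sources used here. No scanner files were used. The number of samples, 2 per genotype, limits the precision.

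Of 45037 probe sets without controls, 34945 had 1 gene symbol in the platform annotation, 932 several and 9160 none listed. The 2 arrays of a sample were averaged and limma 3.58.1 was run in R 4.3.3 on 22518 probe sets (lmFit, eBayes with trend, 4.75 total degrees of freedom), with Benjamini-Hochberg adjustment over all of them at 0.05. The smallest p of an exact permutation test (two-sided) at n = 2 is 0.33, so none was used. Alternatives covered replication, sample number as a block, filter, normalization, probe set choice, variance model and omission of each sample.

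The members and lists were chosen with earlier results of these data known. Samples are given for members with an unadjusted p under 0.05, separated arrays, the lowest p of a role or disagreeing probe sets, and for further members to complete each role. Of the other pathway genes, those with an unadjusted p under 0.05 or separated arrays among the tested are named. Protein comparisons planned for the BCL2 family were not made.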

Additional observations from a re-analysis of the deposited data

Results flagged for a closer look

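In 5 of 54 groups of 4 arrays (27 genes in 2 genotypes), 1 array stood apart from the other 3 by more than Dixon's limit for 4 values. That limit flags about 1 group in 20 by chance if the 4 values are independent. Array 2 of Crebbp+/- sample 1 read 6.84 for Diablo, against 7.35 to 7.44 on the other Crebbp+/- arrays. In wild type, array 1 of sample 2 read 9.50 for Casp2, against 10.09 to 10.20, and array 2 of sample 2 read 8.15 for Xiap, against 8.77 to 8.88. Array 2 of wild-type sample 2 also read 7.19 for Dffb, against 6.20 to 6.33, and array 2 of wild-type sample 1 read 6.85 for Birc3, against 7.44 to 7.54. The arrays of a group are repeats of 2 samples and not 4 independent ones, so the rate of 1 in 20 does not hold here. The share of groups flagged over all genes tested is not given, so the count does not set the members apart.

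At the brightest probe sets, Cflar was the 1 gene whose arrays were apart in opposite directions in the 2 sample numbers. For Cflar, Crebbp+/- minus wild type was -0.067 in number 1 and 0.14 in number 2. Dimmer probe sets of Fadd, Cycs and Xiap also had arrays apart in opposite directions. The share of all genes with this pattern is not given here. The difference between the numbers was not tested.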

How the results depend on the processing

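No alternative gave a member an adjusted p under 0.05 between genotypes, and treating the 8 arrays as independent called 1 probe set among all tested. Members with an unadjusted limma p under 0.05 numbered 0 in the fit reported. With 8 independent arrays there was 1 (Bcl2l11, 3.7% of members, where 8.66% of all genes were). With the most variable probe set of each gene there was 1 (Bcl2, 3.7% of members, where 4.63% of all genes were). Such members numbered 5 when sample number entered as a replicate block (Bcl2l11, Casp2, Apaf1, Cycs and Xiap, 18.5% of members, where 14.2% of all genes were). In that fit the intervals of these 5 excluded 0, with 0.64 to 1.69 for Bcl2l11 (limma adjusted p = 0.139). Those of the other members included 0, and no member passed adjustment. The labels do not say what the number marks, but the deviations of same-numbered samples correlated (r = 0.55 over 22518 probe sets). With 1 sample omitted they numbered 0 to 3, the 3 being Bcl2l2, Bcl2l11 and Apaf1 without wild-type sample 1, where 5.34% of all genes were. With 1 sample omitted the medians ran from -0.066 to 0.13 for pro-apoptotic and from -0.011 to 0.15 for anti-apoptotic genes, lowest without wild-type sample 1 and highest without Crebbp+/- sample 1. Averaging each gene's probe sets gave an anti-apoptotic median of 0.0076. Signs of small differences turned: with 1 sample omitted Bcl2 ran from -0.38 to 0.15 (positive without Crebbp+/- sample 1 or wild-type sample 2), Bak1 from -0.15 to 0.025 (positive without Crebbp+/- sample 1), Bid from -0.14 to 0.18 (negative without Crebbp+/- sample 2 or wild-type sample 1) and Cflar from -0.12 to 0.20 (negative without Crebbp+/- sample 1 or wild-type sample 2). Sizes moved too: with 1 sample omitted Bcl2l11 ran from 0.40 to 1.92, Bcl2l2 from 0.44 to 1.60 and Apaf1 from 0.057 to 0.99 (each lowest without wild-type sample 2 and highest without wild-type sample 1). Mcl1 ran from -0.41 (without Crebbp+/- sample 1) to -0.03 (without Crebbp+/- sample 2), Casp2 from 0.094 (without Crebbp+/- sample 1) to 0.61 (without Crebbp+/- sample 2), and Xiap from 0.16 (without wild-type sample 2) to 0.56 (without wild-type sample 1). Dffa ran from 0.03 (without wild-type sample 2) to 0.43 (without wild-type sample 1), Endog from 0.02 (without wild-type sample 1) to 0.18 (without wild-type sample 2) and Fadd from 0.14 (without Crebbp+/- sample 2) to 0.29 (without Crebbp+/- sample 1). Averaged probe sets gave 0.54 for Bcl2l11 and 0.56 for Bcl2l2, and the most variable probe set -1.22 for Bcl2. Quantile normalization gave -0.023 for Bid and -0.017 for Cflar, averaged probe sets -0.036 for Endog and -0.035 for Xiap, and the most variable probe set 0.037 for Mcl1, -0.17 for Endog and -0.10 for Cflar. Within sample number 1 or 2 alone, where 2 arrays face 2, arrays were apart for 13 genes each, against 1 over all arrays. Members called for sample number were 4 in the fit reported, 0 with no filter and 6 with the brightest 25% of probe sets. In the fit reported 3.85% of all genes were called higher and 6.84% lower in sample 2. The shares of all genes in the other 2 settings are not given here, and the cause of the change in count was not tested. Signals near the floor of the normalization limit Bik, Bmf and Hrk.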
